A study of Homo sapiens with 10 samples.

Results

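The ZNF genes, which carry the family name for zinc finger proteins with a number, were described across 7 lists of m6A peaks. A gene was a member when its name in any list began with ZNF and a digit, and 208 of the 5000 gene names in the lists met this rule. The lists came from the V16A cell line, a model of prostate cancer that grows despite androgen deprivation, profiled by MeRIP-seq. This assay enriches RNA fragments that carry m6A, a methylated form of adenosine, by an antibody and sequences them beside an input. The groups were 1 library named for EU and 40 min, 2 libraries of hypoxia and 2 of normoxia, each from total RNA of that line per the labels, and each of the 2 conditions had 1 further list. EU is taken here to mean ethynyl uridine, a uridine analogue that cells build into nascent transcripts. The labels give no oxygen level for any library and no oxygen condition for the EU library. Nothing in the labels says that replicates came from separate cultures, so the spread between libraries may be technical. A list names the places where a peak was called. It does not give the level of a transcript, the read depth behind it is unknown, and in bulk RNA fewer cells that express a gene and less of its RNA per cell cannot be told apart.

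Most proteins of this family hold arrays of C2H2 zinc fingers, short folds in which cysteines and histidines grip a zinc ion and neighbouring residues read DNA. Many also hold a KRAB domain, which recruits the corepressor TRIM28 and with it enzymes and readers of repressive chromatin, and these proteins are known for silencing transposable elements. Their genes lie in tandem clusters, above all on chromosome 19, and in many of them a single long last exon encodes the whole finger array. Transcripts of the family are known for fast turnover. The mark itself is laid down by the METTL3 and METTL14 complex at the motif known as DRACH, often in long internal exons, in last exons and near stop codons.

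Of the 208 members, 199 were matched to protein-coding genes, 5 to transcribed pseudogenes and 4 to long non-coding RNAs. Chromosome 19 held 105 of them and the other chromosomes 103. In the 5 libraries 190 members had a peak, and the other 18 had one in a condition list alone. Names of clustered, near-identical genes were taken as given, and their counts are uncertain where reads fit several copies.

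Sequence was at hand for a small part of the peaks, where a 300-base start window of any RefSeq gene (build GRCh38.p14) crossed them. It covered at least 30 bases of a peak listed under 9 members. In 6 of these it held GGAC followed by A, C or T on the strand of the peak, the form of DRACH that is methylated most often. Over all 35116 windows, the first 30 bases held this motif in 8.08% and the first 225 bases, as many as the longest covered stretch, in 47.98%, so a match in a long stretch is common. The sites are shown because they are the stretches of called peaks that can be read, with the motif in capitals; the opposite strand was not searched, and a match is not a mapped methylation. ZNF146 has 2 of them on the plus strand, chr19:36235847-36235876 (site 1) and chr19:36235891-36235920 (site 2), under peaks of the EU library, hypoxia replicate 1 and the hypoxia condition list. ZNF566 (minus strand, chr19:36489752-36489781) lay under an EU peak. That peak was wholly outside the annotated gene, before its 5' end at chr19:36489561, so it may not belong to the ZNF566 transcript. ZNF770 (minus strand, chr15:34988169-34988198) and ZNF688 (minus strand, chr16:30571693-30571722) lay under peaks of hypoxia replicate 1. ZNF609 (plus strand, chr15:64460808-64460837) lay under an EU peak. ZNF667-AS1, a long non-coding RNA (plus strand, chr19:56477450-56477479), lay under peaks of normoxia replicate 2 and of the normoxia condition list. This site too is outside the annotated gene, before its 5' end at chr19:56477874.
ZNF146 site 1: gaaacacaacctGGACTgaaatcatgaggg
ZNF146 site 2: agaatcatcaagGGACTtagttgggagctt
ZNF566: ggggccaaggcccgagcctgaggcgGGACT
ZNF609: ggaggtggcggctcccgGGACCggccgcgc
ZNF770: gatgcgtgaggaGGACTtcagaaacccgac
ZNF688: cgcccttcctgtGGACAacgacagctgagg
ZNF667-AS1: cccgcctctcggGGACAgtaccaccagccc

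The libraries differed in markers of cell types. Of 14 markers of T and NK cells, 11 had a peak in EU, 10 and 12 in hypoxia replicates 1 and 2, and 5 and 0 in normoxia replicates 1 and 2. Of 10 markers of prostate cancer cells the numbers were 8 in EU, 2 and 4 in hypoxia, and 1 and 5 in normoxia. FOXA1, a pioneer factor of the prostate lineage, had a peak in all 5 libraries, while the keratins KRT8 and KRT18 had none in any. The EU library, the hypoxia libraries and normoxia replicate 1 thus had peaks in genes of T and NK cells, beside a label of prostate cancer cells. CD3D and CD3E had a peak in EU and both hypoxia libraries, and TRAC had one in normoxia replicate 1 as well. The 5 markers of normoxia replicate 1 stood in a list of 139 genes. Of protein-coding genes outside the ZNF family, 10.0% had a peak in EU, 5.71% and 9.71% in hypoxia, and 0.635% and 3.98% in normoxia. The EU library and normoxia replicate 2 had the most prostate markers with a peak and, as given next, the highest shares of ZNF genes. The part of these markers in the ZNF counts was not tested.

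ZNF genes were most frequent in the EU library. It had a peak in 165 members, 79.3% of all, against 19 and 36 in hypoxia replicates 1 and 2 and 0 and 30 in normoxia replicates 1 and 2. A member is a gene with a peak in any list, so the 79.3% is partly set by that rule. Of all 5000 gene names, 2389 had an EU peak. Members made up 6.91% of the 2389 EU genes (exact 95% interval 5.92 to 8.00), against 1.51% of 1258 and 1.67% of 2151 genes in the hypoxia libraries. In normoxia they made up 0% of 139 genes (0 to 2.62) and 3.34% of 897 genes (2.27 to 4.74). The EU interval did not meet that of any other library. These intervals cover counting error only, and with 1 EU library there is no replicate check and no test.

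The order of the libraries was the same in lists of equal length. With every list shortened to the 1563 peaks of normoxia replicate 2 by deposited p, chosen after seeing the data, members were 51 of 696 EU genes (7.33%), 8 of 694 in hypoxia replicate 1 (1.15%), 11 of 623 in hypoxia replicate 2 (1.77%) and 30 of 897 in normoxia replicate 2 (3.34%). With all shortened to the 212 peaks of normoxia replicate 1 they were 8 of 104 EU genes, 2 of 127 and 2 of 101 in hypoxia, and 0 of 139 and 8 of 140 in normoxia. At that length the EU interval, 3.38 to 14.6%, overlapped each of the others except that of normoxia replicate 1. The deposited p is the authors' value for each peak, taken from column 5 of the lists, and is used here only to rank peaks within a list.

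The EU library also led when members were counted against the annotation, while hypoxia replicate 2 then stood above normoxia replicate 2. RefSeq names 517 protein-coding ZNF genes, and 160 of them (30.9%, exact 95% interval 27.0 to 35.1) had an EU peak, against 10.0% of 19535 other protein-coding genes. In hypoxia replicate 1 the shares were 3.87% of ZNF genes and 5.71% of others, and in hypoxia replicate 2 6.77% and 9.71%. In normoxia replicate 1 they were 0% and 0.635%, and in normoxia replicate 2 5.61% and 3.98%. The intervals of ZNF genes and other genes lay apart in the EU library and overlapped in normoxia replicate 2, at 3.79 to 7.96% and 3.71 to 4.27%. In hypoxia replicate 1 they overlapped too, at 2.38 to 5.91% and 5.39 to 6.05%, and in hypoxia replicate 2 they were 4.76 to 9.29% and 9.30 to 10.1%.

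**Figure D1:**
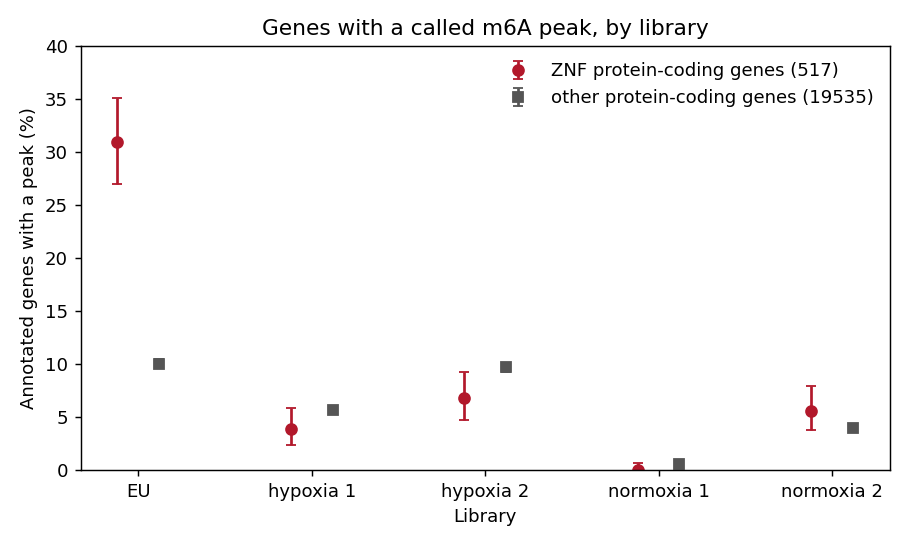
Share of annotated protein-coding genes with at least 1 called peak (y axis, percent) in each of the 5 libraries (x axis), for 517 ZNF genes (circles) and 19535 other genes (squares); bars are exact binomial 95% intervals. The EU library stands at 30.9% of ZNF genes against 10.0% of the others, while both hypoxia libraries have a lower share of ZNF genes than of others.

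Hypoxia and normoxia were next compared over their libraries. On the log2(count + 1) scale, members with a peak averaged 4.77 ± 0.63 in hypoxia and 2.48 ± 3.50 in normoxia (SD, n = 2 each), a difference of 2.29 that was smaller than the spread of the normoxia libraries. The exact two-sided permutation test gave p = 0.667, where 2 libraries against 2 allow no less than 0.333. Without normoxia replicate 1, which had no ZNF peak at all, the difference was -0.19. Peaks in members numbered 31 and 85 in hypoxia and 0 and 52 in normoxia, with a log2 difference of 2.85 (exact permutation p = 0.667), and of -0.01 without normoxia replicate 1. As a share of all genes with a peak, members averaged 1.59 ± 0.115% in hypoxia and 1.67 ± 2.36% in normoxia (SD, n = 2 each; exact permutation p = 1). Adjusted by Benjamini-Hochberg over the 7 comparisons of conditions, p was 1 for each. With so few libraries no outcome could have passed 0.05, so these tests say nothing for or against a difference.

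Presence was then read gene by gene. Of the 73 members with a peak in any of the 4 libraries, 2 had one in both hypoxia libraries and in neither normoxia library. They were 2.74% of the 73 (exact 95% interval 0.334 to 9.55), where the share of all 3226 genes was 15.3%. Both are KRAB zinc finger genes, ZNF195 and ZNF777. None had a peak in both normoxia libraries and in neither hypoxia library, which normoxia replicate 1 fixes, and the share of all genes was 0.155%. By the looser rule of at least 1 library, 43 of the 73 (58.9%, exact 95% interval 46.8 to 70.3) were found in hypoxia and not normoxia, against 69.2% of all genes, and 22 (30.1%, exact 95% interval 19.9 to 42.0) in normoxia and not hypoxia, against 15.5% of all genes. By the condition lists, 49 of 87 members (56.3%, 45.3 to 66.9) were in the hypoxia list alone, against 62.8% of all genes, and 28 (32.2%, 22.6 to 43.1) in the normoxia list alone, against 20.3%. For hypoxia alone the intervals of the looser rule and of the condition lists hold the share of all genes, while that of the stricter rule lies below it. For normoxia alone the intervals of the looser rule and of the condition lists lie above the share of all genes. All 22 members of the looser normoxia rule come from normoxia replicate 2, since replicate 1 had no ZNF peak, so that excess rests on 1 library. Genes are not replicates, and these shares were not tested.

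ZNF195 had 2 peaks in hypoxia replicate 1 and 5 in replicate 2, none in either normoxia library and none in the EU library. A peak at chr11:3359450-3359599 was called at the same coordinates in replicates 1 and 2, where its deposited p was 1.2e-05 and 6.8e-06. Its other shared place lay at the opposite end of the gene, at chr11:3377738-3377837 in replicate 1 and inside a peak of 2 exon blocks, chr11:3375635-3377837, in replicate 2. ZNF195 also had 4 peaks in the list of the hypoxia condition and none in that of normoxia. ZNF777 had 1 peak in each hypoxia library, at chr7:149455650-149455749 in replicate 1 and in 3 exon blocks from 149436745 to 149454114 in replicate 2, and these did not overlap.

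The hypoxia replicates shared few ZNF sites. They had 4 members in common, ZNF146, ZNF195, ZNF217 and ZNF777, which is 21.1% of the members of replicate 1 and 11.1% of those of replicate 2, and ZNF195 alone had an overlapping peak. Of the 31 member peaks of replicate 1, 2 (6.45%, exact 95% interval 0.791 to 21.4) overlapped a peak of replicate 2 by at least 1 base on the same strand, against 47.9% of 2848 peaks in other genes. Hypoxia replicate 1 and normoxia replicate 2 also had 4 members in common, ZNF146, ZNF217, ZNF417 and ZNF513. Hypoxia replicate 2 and normoxia replicate 2 had 6, and 5 of these 6, ZNF121, ZNF146, ZNF184, ZNF622 and ZNF652, had an overlapping peak. The shares of all genes common to these pairs of libraries are not given here. The counts of shared genes therefore do not show whether ZNF genes are shared less often than others. Of the 31 peaks of hypoxia replicate 1, normoxia replicate 2 also overlapped 2 (6.45%), against 7.90% of peaks in other genes. That member share is thus near the share of other genes. The list of normoxia replicate 2 is also much shorter than that of hypoxia replicate 2.

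Overlap with the EU library was larger. Of the 85 member peaks of hypoxia replicate 2, 37 (43.5%, exact 95% interval 32.8 to 54.7) overlapped an EU peak, against 23.1% of 6536 peaks in other genes. The shares were 29.0% (14.2 to 48.0) against 28.4% in hypoxia replicate 1 and 53.8% (39.5 to 67.8) against 54.1% in normoxia replicate 2. By gene, 25 of 36 members of hypoxia replicate 2 (69.4%) were also in the EU library, which is 15.2% of the EU members, and 21 of the 25 had an overlapping peak. For normoxia replicate 2 it was 24 of 30 (80.0%), or 14.5% of the EU members, with an overlapping peak in 21. For hypoxia replicate 1 it was 9 of 19 (47.4%), or 5.45% of the EU members, with 5. The shares of other genes also in EU were 39.4% for hypoxia replicate 2, 63.7% for normoxia replicate 2 and 43.5% for hypoxia replicate 1. The member share of hypoxia replicate 1 was thus near that of other genes. In reverse, 8.75% of the 400 EU member peaks were overlapped by hypoxia replicate 2 and 6.00% by normoxia replicate 2, against 31.5% and 15.8% of EU peaks in other genes. A longer list can overlap more peaks, so these shares depend on list length.

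Across the 5 libraries, 140 members had a peak in 1, 42 in 2, 6 in 3 and 2 in 4. None had one in all 5, which normoxia replicate 1 fixes because it had no ZNF peak. The same counts over all genes are not given here, so these do not show whether ZNF genes recur less than others. The 8 members in 3 or more were ZNF146, ZNF217, ZNF652, ZNF121, ZNF417, ZNF184, ZNF513 and ZNF622. All 8 were among the EU and the normoxia replicate 2 genes. The hypoxia replicates then divided them: ZNF652, ZNF121, ZNF184 and ZNF622 had peaks in hypoxia replicate 2, ZNF417 and ZNF513 in replicate 1, and ZNF146 and ZNF217 in both.

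**Figure D2:**
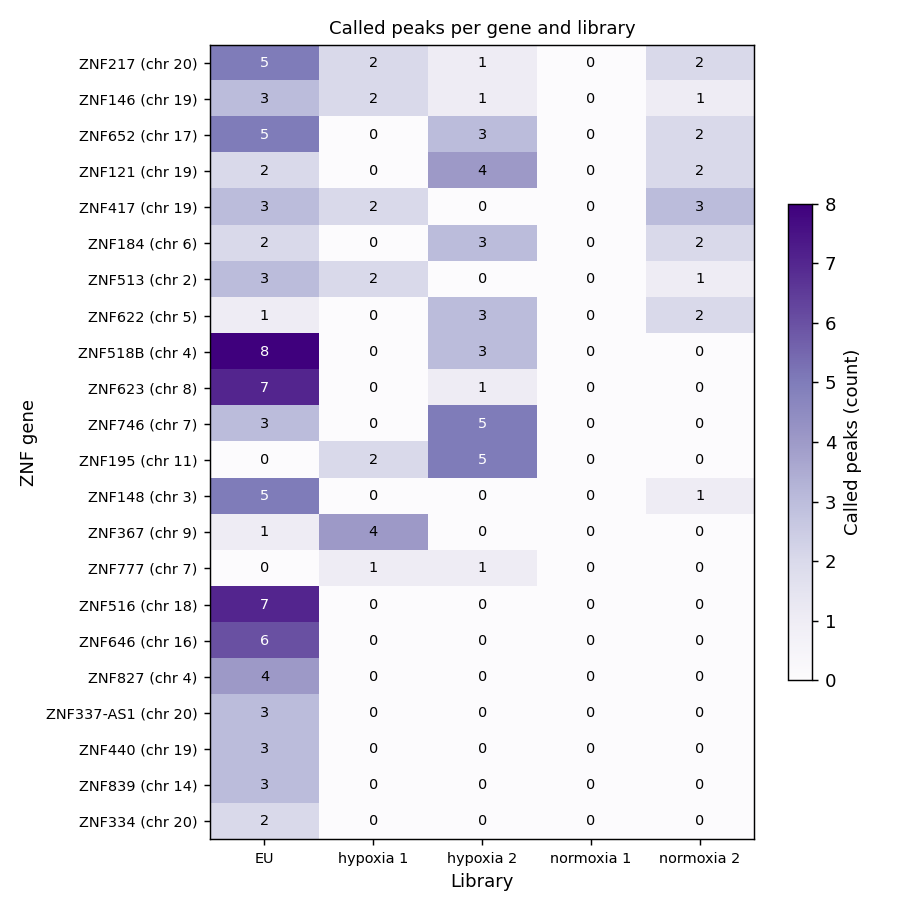
Number of called peaks (colour and digit) in each of the 5 libraries (x axis) for the 22 ZNF genes named by a rule (y axis, with chromosome), ordered by the number of libraries. The column of normoxia replicate 1 is 0 throughout, and ZNF518B, with 8 peaks in the EU library, has the highest count.

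ZNF146 encodes a protein made of zinc fingers almost throughout, and it is known to be overexpressed in several carcinomas. It had 3 peaks in the EU library, 2 and 1 in hypoxia, and 0 and 1 in normoxia. Its gene spans chr19:36214723-36238768. One stretch was shared by 3 libraries, with peaks at chr19:36237276-36238075 in EU, chr19:36237276-36237925 in hypoxia replicate 2 and chr19:36237476-36237925 in normoxia replicate 2. Hypoxia replicate 1 had none there. Its peaks lay to either side, at chr19:36235828-36236077, which holds both sequences printed for the gene, and at chr19:36238225-36238325, and the EU library had a peak over each. The 2 hypoxia libraries therefore had different ZNF146 sites, and the EU library had all of them.

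**Figure D3:**
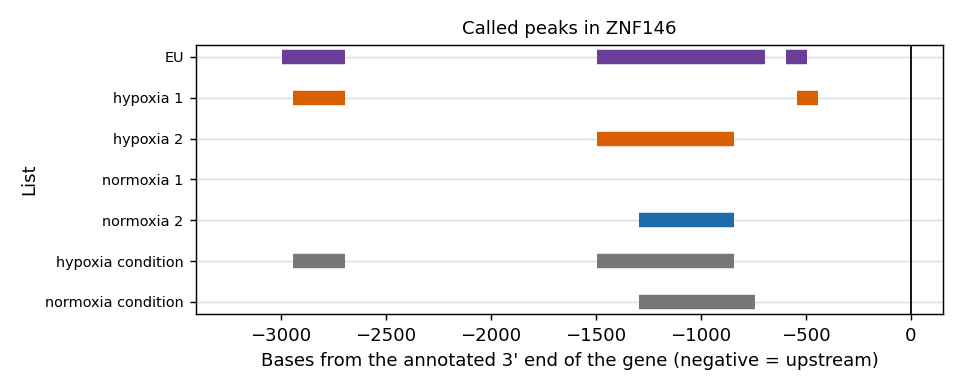
Called peaks in ZNF146 (bars, to scale) in each of the 7 lists (y axis) by distance from the annotated 3' end of the gene (x axis, bases). The stretch with midpoints 1068 to 1168 bases before the end is shared by EU, hypoxia 2 and normoxia 2, and hypoxia 1 has peaks on either side of it.

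ZNF217, an oncogene amplified in breast cancer that works with the CtBP corepressor, had 5 peaks in EU, 2 and 1 in hypoxia, and 0 and 2 in normoxia. EU, hypoxia replicate 1 and normoxia replicate 2 met at chr20:53576085-53576185. The single peak of hypoxia replicate 2, chr20:53582889-53583139, lay elsewhere, had a deposited p of 0.011, and lay within the outer bounds of an EU peak of 2 blocks. The condition lists had 0 peaks in ZNF217 under hypoxia and 5 under normoxia, so they place the gene on one side although both hypoxia libraries had it. ZNF652, a DNA-binding repressor, had 5 peaks in EU, 0 and 3 in hypoxia, and 0 and 2 in normoxia. Both of its normoxia sites, chr17:49298098-49298396 and chr17:49317182-49317331, were also met by peaks of the EU library and of hypoxia replicate 2. Its smallest deposited p in normoxia replicate 2 was 3.6e-07, and among ZNF peaks of that library only ZNF513, at 3.2e-07, had a smaller one.

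ZNF121 had 2 peaks in EU, 0 and 4 in hypoxia, and 0 and 2 in normoxia. It held the widest ZNF peak of the 5 libraries, 1193 exonic bases in 2 blocks in EU (chr19:9565964-9567694). In hypoxia replicate 2 the same stretch was called as 4 peaks that share a deposited p of 6.6e-06. Pieces with one p may belong to one call, so the number of peaks in a gene can exceed the number of calls. ZNF417, a KRAB gene known for silencing an endogenous retrovirus, had 3 peaks in EU, 2 and 0 in hypoxia, and 0 and 3 in normoxia. Hypoxia replicate 1 and EU shared a peak at chr19:57909683-57909782.

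ZNF622, which in human cells takes part in the maturation of the large ribosomal subunit, had 1 peak in EU, 0 and 3 in hypoxia, and 0 and 2 in normoxia. Unlike the finger-array genes above, its recurrent peaks lay at the start of the gene, at relative positions of 0.0356 in EU, 0.0390 in hypoxia replicate 2 and 0.0268 in normoxia replicate 2, where 0 is the 5' end and 1 the 3' end of the annotated span. ZNF513, mutated in a form of retinitis pigmentosa, differed by library: its normoxia replicate 2 peak stood at 0.875 and those of hypoxia replicate 1 at 0.157 and 0.0151. ZNF184 had 2 peaks in EU, 0 and 3 in hypoxia, and 0 and 2 in normoxia, all between 0.292 and 0.319 of a long annotated span.

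The EU library alone held 117 of the 190 members found in the 5 libraries (61.6%), against 25.4% of all 4327 genes. By smallest deposited p these were led by ZNF337-AS1, an antisense RNA, ZNF334, ZNF839, ZNF827, which recruits a deacetylase complex to telomeres, and ZNF440. ZNF337-AS1 had 3 EU peaks, the best with a deposited p of 4e-08. It also had 1 in the hypoxia condition list, and the other 4 had none in either condition list. ZNF334 had 2 EU peaks, ZNF839 had 3 and ZNF827 had 4. ZNF440 had 3, the best at chr19:11832461-11832611 with 1.1e-07. The sources used here do not say how the authors' calling treated strand, so ZNF337-AS1 and its partner ZNF337, with 2 EU peaks and 2 of hypoxia replicate 2, cannot be told apart with certainty. The EU peak of ZNF337-AS1 at chr20:25675594-25676090 (plus strand) covers the place of the ZNF337 EU peak at chr20:25675605-25676052 (minus strand). Hypoxia replicate 2 had a ZNF337 peak there too, at chr20:25675704-25675803. With strand set aside, this place was thus not found in EU alone.

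Members found in EU alone are set beside those shared with another library as a description, with no test. The 117 averaged 2.23 peaks per gene and the 48 shared ones 2.90, at median positions of 0.862 and 0.828. The members with the most peaks in a single library were ZNF518B with 8 in EU, 0 and 3 in hypoxia and none in normoxia, ZNF516, a cofactor of a CtBP repressor complex, with 7 in EU and none elsewhere, and ZNF623 with 7 in EU and 1 in hypoxia replicate 2. Conversely 25 members had a peak in another library and none in EU. The same count over all genes is not given here, so the 25 cannot be read as particular to ZNF genes. By library, members were also in EU at 47.4% against 43.5% of other genes in hypoxia replicate 1. The shares were 69.4% against 39.4% in hypoxia replicate 2 and 80.0% against 63.7% in normoxia replicate 2. The next 3 members were chosen after their values were seen. ZNF598, a ubiquitin ligase that senses collided ribosomes, and ZNF326, a factor of transcript elongation and splicing, each had 3 peaks in hypoxia replicate 2. ZNF445, a KRAB protein that maintains imprinting, had 6 peaks in normoxia replicate 2 and none in the other 4 libraries, yet 8 in the hypoxia condition list and 0 in the normoxia one. For ZNF445 the library and the condition lists therefore point opposite ways.

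The number of peaks per member was 2.42 in EU, 1.63 and 2.36 in the hypoxia libraries and 1.73 in normoxia replicate 2. Other genes had 2.09 in EU, 2.30 and 3.09 in hypoxia and 1.74 in normoxia replicate 2. Members were above other genes in EU and below them in the other 3 libraries. With pieces of equal p counted once, members of normoxia replicate 2 were above other genes, at 1.43 against 1.39, and the mean difference over the 4 libraries was then -0.134. With every piece counted, the mean difference was -0.27 ± 0.52 (SD, n = 4 libraries; exact sign-flip p = 0.375, where 4 libraries allow no less than 0.125), less than the spread between libraries. Leaving out EU gave -0.469, leaving out hypoxia replicate 1 gave -0.134 and leaving out hypoxia replicate 2 gave -0.113. Normoxia replicate 1, without a ZNF peak, has no value in this and the next measures. Between conditions, peaks per member averaged 2.00 ± 0.516 in hypoxia (SD, n = 2) and were 1.73 in the 1 normoxia library (exact permutation p = 1).

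Widths of member peaks were close to those of other genes within each library, while the EU library had wider peaks in both. The median exonic width of member peaks was 197 bases in EU, 149 and 150 in hypoxia and 150 in normoxia replicate 2, within 2 bases of other genes in each library (mean difference -1.0 ± 0.82 bases, SD, n = 4; exact sign-flip p = 0.25). The closeness depended on which peaks were kept: the mean difference was -11.8 bases with the 50% of each list of smallest p, -24.5 with peaks of 151 bases or more and -5.5 with lists of 212 peaks (exact sign-flip p of 0.375 to 1). The widest members after ZNF121 were ZNF646, with a peak of 950 bases, and ZNF148, a transcription factor also known as ZBP-89, with one of 948, both in EU. Peaks split over several exon blocks were rarer in members. They were 7.00% of member peaks and 20.9% of other peaks in EU, 12.9% and 36.2% in hypoxia replicate 1, 16.5% and 36.9% in hypoxia replicate 2, and 0% and 10.3% in normoxia replicate 2. The direction was the same in the 4 libraries, by a measure added after seeing the data and not tested.

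Position in the gene was measured from the middle exonic base of each peak. The median was 0.850 in EU, 0.810 and 0.718 in hypoxia and 0.744 in normoxia replicate 2, where other protein-coding genes had 0.790 in EU, 0.719 and 0.743 in hypoxia and 0.773 in normoxia replicate 2. The mean difference between members and other genes was 0.0243 ± 0.0606 (SD, n = 4; exact sign-flip p = 0.5), with 2 libraries higher and 2 lower. It was 0.00203 without hypoxia replicate 1, 0.0123 without EU, 0.0409 without hypoxia replicate 2 and 0.0418 without normoxia replicate 2, and 0.259 with lists of 212 peaks. Adjusted over the 6 comparisons within libraries, p was 0.5 for width, 0.6 for position and 0.75 for the chromosome 19 width. Between conditions the medians averaged 0.764 ± 0.0652 in hypoxia (SD, n = 2) against 0.744 in the 1 normoxia library (exact permutation p = 1).

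Member peaks of the EU library were rare at the 5' end. Of its 399 member peaks with a span, 9 (2.26%) lay in the first 20% of the gene, against 13.5% of peaks in other coding genes, and 237 (59.4%) in the last 20%, against 48.6%. In hypoxia replicate 1, 9 of 31 (29.0%) lay in the first 20%, against 15.1% in other genes, with 2 peaks each of ZNF367 and ZNF513 and 1 each of ZNF195, ZNF577, ZNF692, ZNF770 and ZNF777. In hypoxia replicate 2 it was 8 of 85 (9.41%) against 14.2%, and in normoxia replicate 2 5 of 52 (9.62%) against 15.6%. ZNF367 held the most 5' member peak of the 5 libraries that lay within its gene, at 0.00435 in hypoxia replicate 1, followed by ZNF622 in normoxia replicate 2 at 0.00581 and ZNF746 in hypoxia replicate 2 at 0.0076. ZNF746, also called PARIS, is a substrate of the ubiquitin ligase Parkin, and its other 4 peaks of that library included the ZNF peak with the smallest deposited value there, 8.5e-08. Exon and coding annotation was not used here, so a share of the span, introns included, is not a gene region.

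Chromosome 19 carried 250 of the 517 annotated coding ZNF genes. In the EU library 35.6% of them had a peak (exact 95% interval 29.7 to 41.9), against 26.6% of the 267 elsewhere (21.4 to 32.3). In the other libraries the order was not the same: 3.60% against 4.12% in hypoxia replicate 1, 4.40% against 8.99% in hypoxia replicate 2 and 5.60% against 5.62% in normoxia replicate 2. Among coding genes of chromosome 19 that are not ZNF genes, 9.74% had a peak in EU, 5.58% and 9.83% in hypoxia and 0.500% and 4.00% in normoxia, near the shares of all other coding genes. Of the members with a peak, those on chromosome 19 were 55.2% in EU, 42.1% and 30.6% in hypoxia and 50% in normoxia replicate 2. Hypoxia averaged 36.3 ± 8.17% (SD, n = 2) against 50% in the 1 normoxia library, and the exact permutation test gave p = 0.667, the smallest that 2 libraries against 1 allow. The difference of -13.7 points was -7.89 without hypoxia replicate 2 and -19.4 without hypoxia replicate 1.

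Members on chromosome 19 had their peaks nearer the 3' end than other members in each of the 4 libraries. Median positions were 0.876 against 0.805 in EU, 0.905 against 0.695 in hypoxia replicate 1, 0.754 against 0.658 in hypoxia replicate 2 and 0.854 against 0.694 in normoxia replicate 2. The mean difference was 0.134 ± 0.0632 (SD, n = 4), higher in 4 of 4, with an exact sign-flip p of 0.125, the smallest that 4 libraries allow, and 0.375 after Benjamini-Hochberg adjustment over 6 comparisons. With every list shortened to 212 peaks the mean difference was -0.317. In hypoxia replicate 2 the last 20% of the gene held 36.0% of chromosome 19 peaks and 40.0% of the others, where in EU it held 66.0% and 52.3%. Measured in bases, the median distance from peak to annotated gene end was 2380 on chromosome 19 and 3598 elsewhere in EU, 1708 and 3899 in hypoxia replicate 1, and 2913 and 9732 in normoxia replicate 2. In hypoxia replicate 2 the order turned, with 6678 bases on chromosome 19 and 4306 elsewhere, so the 3' shift held in 4 of 4 libraries by relative position and in 3 of them by distance, a measure added after seeing the data.

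Members on chromosome 19 also had fewer peaks each, 2.27 against 2.61 in EU, 1.38 against 1.82 in hypoxia replicate 1, 2.27 against 2.40 in hypoxia replicate 2 and 1.60 against 1.87 in normoxia replicate 2. The mean difference was -0.29 ± 0.13 (SD, n = 4), lower in 4 of 4, again at the smallest possible exact sign-flip p of 0.125 (adjusted 0.375). With pieces of equal p counted once, chosen after seeing the data, it was -0.205. Widths showed no common direction, with a mean difference of 6.25 ± 41.3 bases (SD, n = 4; exact sign-flip p = 0.75). The same genes recur in these libraries, so the libraries are not independent draws of genes.

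**Figure D4:**
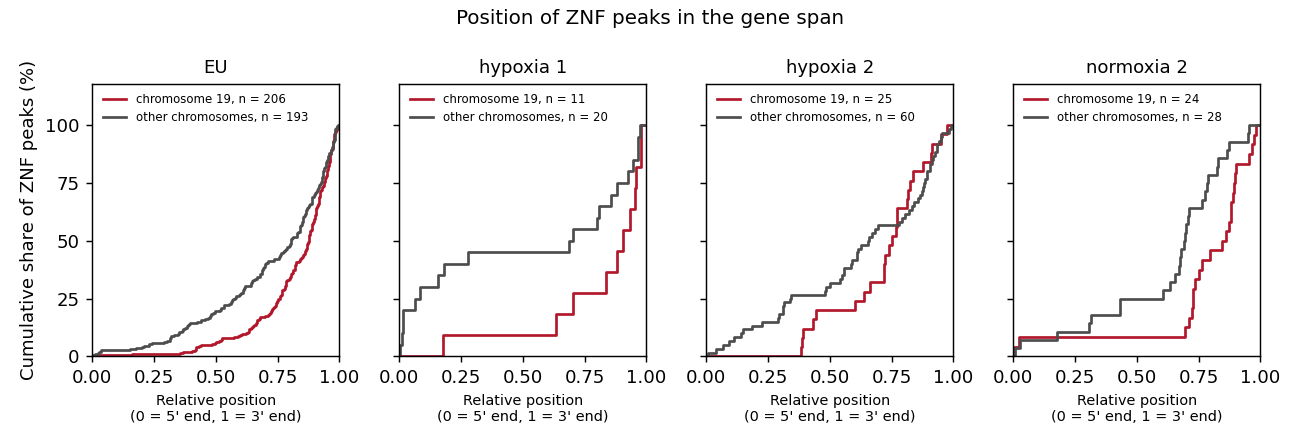
Cumulative share of ZNF peaks (y axis, percent) by relative position in the annotated gene span (x axis, 0 at the 5' end and 1 at the 3' end), for members on chromosome 19 and on other chromosomes, in the 4 libraries that have ZNF peaks. The chromosome 19 line lies to the right at the median in each, and in hypoxia 1 the other members rise early, with 40.0% of their 20 peaks in the first 20%.

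Among the other chromosomes with at least 17 annotated coding ZNF genes, EU shares were 9 of 21 on chromosome 1 (42.9%), 12 of 30 on 16 (40.0%), 9 of 35 on 7 (25.7%), 5 of 20 on 3, 3 of 17 on 10 (17.6%) and 3 of 18 on 8 (16.7%). Chromosomes 1 and 16 were thus above the 35.6% of chromosome 19, on far fewer genes and with no test. Either hypoxia library had a peak in 5 of 21 on chromosome 1, 4 of 30 on 16, 7 of 35 on 7, 1 of 20 on 3, 1 of 17 on 10 and 1 of 18 on 8, against 18 of 250 on chromosome 19 (7.20%). Chromosome 19 thus lay below the first 3 of these and above the other 3.

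Within chromosome 19 the clusters differed. Annotated coding ZNF genes with starts less than 1 Mb apart formed 16 groups, of which 7 had at least 10 genes. In the EU library a peak was called in 9 of 16 genes from ZNF557 to ZNF846 (56.3%) and in 14 of 25 from ZNF653 to ZNF791 (56.0%, exact 95% interval 34.9 to 75.6). It was called in 20 of 41 from ZNF175 to ZNF331 (48.8%), 23 of 60 from ZNF628 to ZNF446 (38.3%) and 9 of 26 from ZNF565 to ZNF573 (34.6%). Shares were lower in the ZNF101 to ZNF254 cluster, with 7 of 37 (18.9%, 7.96 to 35.2), and in the ZNF575 to ZNF296 cluster, with 2 of 24 (8.33%, 1.03 to 27.0). The first of these 2 clusters spans chr19:19668153-24129968. The hypoxia libraries together had a peak in 4 of 16 and 4 of 25 genes of the first 2 clusters and in 2 of the 60 from ZNF628 to ZNF446. The normoxia libraries together had 2 of 16, 1 of 25 and 5 of 60. Neighbouring ZNF genes are often near-copies, and the files do not say how reads that fit several were placed.

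**Figure D5:**
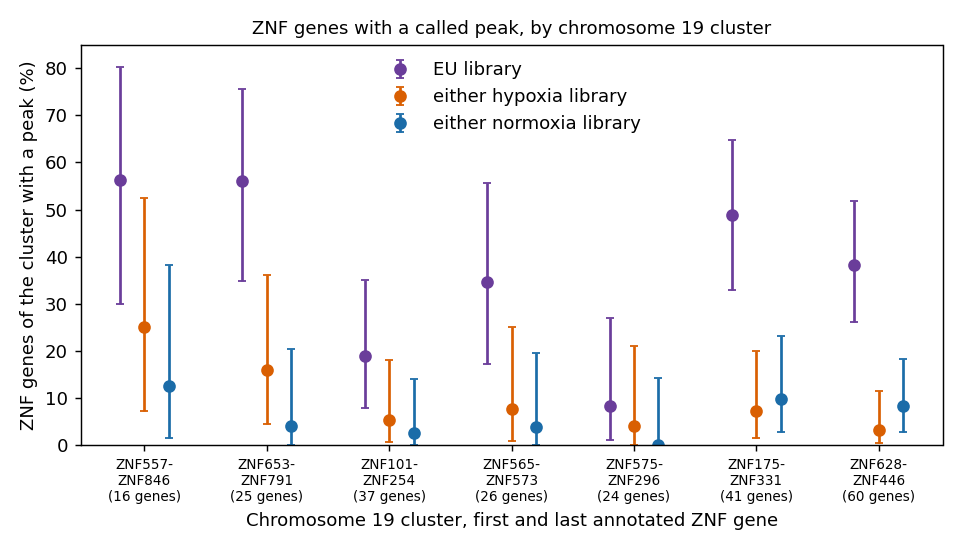
Share of annotated ZNF genes with a called peak (y axis, percent) in the 7 chromosome 19 clusters of at least 10 genes (x axis, in genome order, named by first and last gene), for the EU library, either hypoxia library and either normoxia library; bars are exact binomial 95% intervals. EU shares run from 8.33% to 56.3%, and the intervals of the hypoxia and normoxia libraries overlap in every cluster.

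Partners of the KRAB domain were looked up beside the members. Of 20 genes listed for this silencing pathway, 1 had a peak in EU, 3 and 6 in hypoxia, and 0 in both normoxia libraries. The shares of all protein-coding genes outside the ZNF family were 10.0% in EU, 5.71% and 9.71% in hypoxia, and 0.635% and 3.98% in normoxia. DNMT1, the maintenance DNA methyltransferase, had 6 peaks in EU and 5 and 6 in hypoxia. CBX5, which encodes the heterochromatin protein HP1 alpha, had 8 and 13 in hypoxia, and CHD4, a remodeller of the NuRD complex, 6 and 2. TRIM28 and SETDB1, the corepressor and its histone methyltransferase, had none in any of the 7 lists. The partners thus had their highest count in hypoxia replicate 2, where the ZNF genes had theirs in EU, and the difference was not tested.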

How the data were processed

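Members and lists were chosen with earlier results of these data known. Reads were aligned with STAR to hg38, per the submitters' processing notes. For the caller, threshold, strand setting, use of inputs and depth, nothing is stated (not given in the sources used here). There are 12 columns and no header in every list. The p-value of each peak as deposited was read from column 5, by its values, which run to 0.013. Per library there were 5044 (EU), 2879 and 6621 (hypoxia), and 212 and 1563 (normoxia) peaks; the 5 inputs were not analysed here.

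Start coordinates were shifted by 1 base to be 1-based. Names were matched by symbol, synonym or older symbol to RefSeq genes of GRCh38.p14, whose chromosomes have the coordinates of hg38, where a peak lay within 10 kb of the gene. All 208 members matched, with 801 of 802 peaks. The middle of 5 peaks lay outside the span of the matched gene, and their position was set to the nearer end. The strand of 187 members found in the promoter table was the same in both. Width is the sum of exon blocks. Since normoxia replicate 1 had no ZNF peak, 1 was added to counts before log2, which the planned test did not foresee, and measures within members use 4 libraries. Conditions were compared by exact two-sided permutation tests over libraries, and members with other genes by exact sign-flip tests of within-library differences, tested on simulated data. Intervals are exact binomial 95%. Named genes are those with a peak in both libraries of 1 condition alone or in at least 3 of 5 libraries, the 5 leading EU-only members, and the 3 with the most peaks, the widest peaks, the lowest positions and, on and off chromosome 19, the most libraries. Python 3.11.15, numpy 2.4.6, pandas 2.3.3 and scipy 1.17.1 were used.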

Additional observations from a re-analysis of the deposited data

How the results depend on the processing

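Of 154 alternatives over 19 results, 122 were counted as unchanged, which for the tested results mostly means that the sign was kept, whatever the size. Some could not have changed. Leaving out a hypoxia or normoxia library cannot alter the EU count of 165 members, and normoxia replicate 1 has no value in measures within members. The tally is therefore a description and not a measure of how firm the results are. The results with a test had 124 of these alternatives, of which 104 kept the direction. Some of the 124 allow no p, and none of the others could pass 0.05 (lowest exact p 0.125). Leaving out 1 library at a time, the hypoxia minus normoxia difference ran from -0.19 to 4.77 for members (log2), -0.0148 to 5.71 for peaks (log2), -1.75 to 1.59 percentage points for the share of genes, -0.102 to 0.628 for peaks per member, -1 to 0 bases for width, -0.0263 to 0.0659 for position and -19.4 to -7.89 points for the chromosome 19 share. For members minus other genes it ran from -0.469 to -0.113 in peaks per gene, -1.33 to -0.667 bases in width and 0.00203 to 0.0418 in position. Normoxia replicate 1 alone turned the first 2. Counts of members found in hypoxia alone ran from 2 to 30 and in normoxia alone from 0 to 22. The chromosome 19 difference in width ran from -8 to 8.33 bases when a hypoxia or normoxia library was left out. It was 24.3 bases without the EU library.

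With each list shortened to 212 peaks, the difference in members was 0, that in width 23.5 bases, that in the chromosome 19 share 25 points, and the chromosome 19 difference in position -0.317, with 0 members in hypoxia alone and 8 in EU. With the 50% of each list of smallest p, these were 1 base for width, 1.47 points for the chromosome 19 share and -28.8 bases for the chromosome 19 width, with 1 member in hypoxia alone and 87 in EU. Keeping only peaks of 151 bases (the median) or more, width differed by 0, position by -0.0216 between conditions and -0.0115 between members and other genes, and chromosome 19 width by -11.6, with 0 members in hypoxia alone. By current symbol the chromosome 19 width difference was -5.63. The condition lists gave 49 members in hypoxia alone and 28 in normoxia alone, and the EU list shortened to the length of normoxia replicate 2 gave 51 members. Shorter lists and fewer libraries hold fewer peaks by construction; the other causes were not tested.

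Same-numbered libraries did not deviate together (r = -0.0978 over 3226 genes), so the numbers are not taken as pairs. Blocking on the replicate number cannot change the difference in members, which is 2.29 by arithmetic. The exact sign-flip p was then 0.5, the smallest that 2 blocks allow, so blocking is no check of this difference.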

Other observations

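Members that do not encode protein had peaks too. Under the name ZNF625-ZNF20, a readthrough RNA, there were 5 peaks in EU, 2 in hypoxia replicate 2 and none in normoxia. EU peaks listed under ZNF20 and ZNF625 lie over these on the same strand, such as chr19:12132424-12132674 (ZNF20) over chr19:12132416-12132665, so the same stretch is counted under more than 1 member and cannot be assigned to the readthrough RNA. The pseudogenes ZNF658B, ZNF542P, ZNF767P and ZNF812P had 3, 2, 2 and 2 peaks in EU and none elsewhere, while ZNF37BP had 2 in hypoxia replicate 2 alone. ZNF667-AS1 had 2 in normoxia replicate 2 and 2 in the normoxia condition list. These genes were named after their values were seen.

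C2H2 genes of other name families, such as ZFP, ZSCAN, ZBTB, KLF and EGR, made up 2.30% of EU genes, 1.27% and 1.44% of hypoxia genes, and 0% and 1.78% of normoxia genes, in the same order of libraries as the ZNF genes. The condition lists held members that neither of their libraries had, 27 of 59 in hypoxia and 14 of 38 in normoxia. Among them were ZNF106 with 4 peaks in the normoxia list and ZNF629 with 4 in the hypoxia list. The same share over all genes is not given here, so these counts cannot be read as particular to ZNF genes.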
